A study of Mus musculus with 4 samples.

Results

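Cd4, 1 of the 11820 genes counted in the single-cell RNA-sequencing of colonic macrophages and monocytes, is described here in 5420 cells from 4 mice. It was selected because its share of positive cells differed between the diets in these same data, so its levels by mouse and diet are given as a description with no test. Male C57/Bl6N mice received a chow diet (replicates 9 and 11) or a coconut-based HFD with 60% fat (replicates 1 and 3) for 1 week and were 6 to 7 weeks old. Each of the 4 libraries came from 1 mouse, with cells of the colonic lamina propria sorted as live, CD45+, Lin-, CD11b+ and CD24- cells that carried Ly6C or CD64. The labels name no transgene, deletion or further agent in either group. The Cd4 gene (ENSMUSG00000023274) lies on the minus strand of chromosome 6, from 124864692 to 124888221 in GRCm38, and codes for a protein.

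CD4 is a surface glycoprotein of the immunoglobulin superfamily and is best known as the coreceptor of helper T cells, where its outer part binds MHC class II and its tail holds the kinase Lck. It is also found on macrophages of the mouse gut, where CD4 together with Tim-4 is used to divide macrophages by how quickly blood monocytes replace them. Gut macrophages arise largely from Ly6C+ monocytes, which lose Ly6C and Ccr2, gain MHC class II and then gain the genes of resident cells, among them the 3 chains of the complement component C1q.

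Each cell was assigned to a mouse by its name. Libraries held 904 to 2002 cells with a median of 3266 to 3926 UMIs (unique molecular identifiers, each standing for a captured RNA molecule) per cell. Only 23 barcodes occurred in more than 1 library, in 46 cells, 5 of which were Cd4-positive. Cells in which C1qa, C1qb and C1qc made up at least 0.5% of UMIs were called C1q-high. They numbered 745 and 1812 in the chow mice (82.4% and 90.5% of cells) and 399 and 557 in the HFD mice (41.3% and 36.0%), for a mean of 86.5 ± 5.73% against 38.6 ± 3.76% (SD, n = 2). Of the macrophage genes, Mertk, a receptor for dying cells, had 17.1 to 36.8 CPM in C1q-high and 2.30 to 7.64 CPM in C1q-low cells of the 4 mice (CPM are a gene's UMIs per 1000000 UMIs of the same cells), and Adgre1, which encodes F4/80, had 233 to 697 CPM and 150 to 309 CPM. Fcgr1, which encodes the CD64 of the sort, was at like levels in both classes (139 to 220 CPM and 174 to 241 CPM) and the higher in C1q-high cells of chow replicate 11 and HFD replicate 3 only.

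Cd4 transcripts lay mostly in C1q-high cells. Of 1129 Cd4 UMIs, 1117 lay in C1q-high cells, and 674 of the 685 Cd4-positive cells (at least 1 UMI), or 98.4%, were C1q-high. Among 1907 C1q-low cells 11 (0.577%) were positive. In C1q-high cells the share of Cd4-positive cells was 27.7% in chow replicate 9 (206 cells, Wilson 95% interval 24.6% to 31.0%) and 23.0% in chow replicate 11 (417 cells, 21.1% to 25.01%). It was 6.27% in HFD replicate 1 (25 cells, 4.28% to 9.09%) and 4.67% in HFD replicate 3 (26 cells, 3.21% to 6.75%). Both HFD mice thus lay below both chow mice, which is the pattern Cd4 was chosen for. The intervals cover the counting of cells only. The means were 25.3 ± 3.28% and 5.47 ± 1.13% (SD, n = 2 each), a 4.63-fold difference.

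The summed level of Cd4 in C1q-high cells followed the same order. It stood at 105 CPM and 92.3 CPM in the chow mice and at 21.8 CPM and 16.2 CPM in the HFD mice, a 5.19-fold difference of the means. Of 5091 genes tested 23.3% also had lower CPM in both HFD mice than in both chow mice. The log2 fold change fitted with edgeR was -2.53 (SE 0.21). Over all sorted cells the ratio between the diets was larger (9.74-fold for the mean share), with 23.0% and 21.1% positive cells in chow against 2.59% and 1.94% in HFD, and 93.4 CPM and 86.8 CPM against 9.41 CPM and 8.06 CPM respectively. C1q-low cells, which held little Cd4, made up more of the HFD libraries. C1q-high cells had a median of 4231 and 3925.5 UMIs in chow and 3817 and 4319 UMIs in HFD. When every cell was reduced to 2000 UMIs and 511 shallower C1q-high cells were left out, the expected shares were 16.2% and 14.2% against 4.13% and 2.51%.

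**Figure D1:**
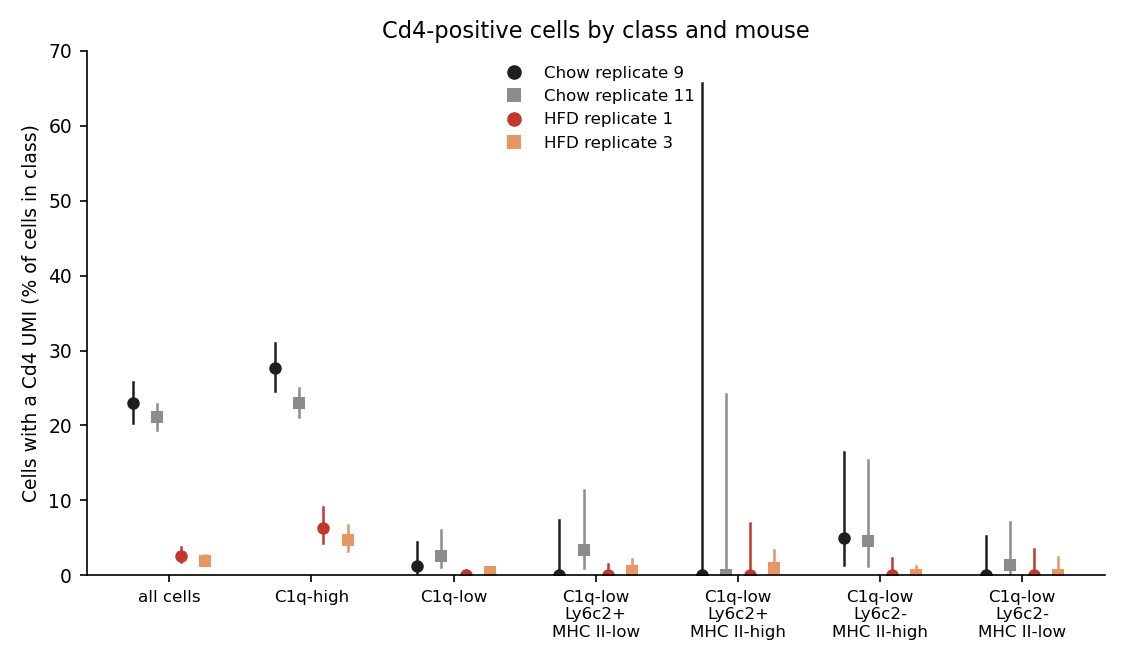
Share of cells with at least 1 Cd4 UMI (vertical axis, percent of the cells in a class) in each mouse, for all cells, C1q-high cells, C1q-low cells and the 4 divisions of C1q-low cells by Ly6c2 and MHC class II. Points are single mice and bars are Wilson 95% intervals. In C1q-high cells the chow mice sit at 27.7% and 23.0% and the HFD mice at 6.27% and 4.67%, while every point of a C1q-low class lies at or below 5%, with wide intervals where a class holds few cells.

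Positive cells usually held a single Cd4 UMI. In chow replicate 9, 123 of 206 positive C1q-high cells had 1 UMI, and in chow replicate 11, 254 of 417 did. In each HFD mouse 17 positive cells had 1 UMI. Cells with 2 or more UMIs numbered 83 and 163 in the chow mice and 8 and 9 in the HFD mice, and the highest count in any cell was 8. Were the same UMIs spread over the C1q-high cells of a mouse in proportion to their depth, 36.5% and 30.3% of chow cells and 8.53% and 6.87% of HFD cells would hold at least 1. The observed shares were lower in each of the 4 mice, and cells with 2 or more UMIs were more numerous than the 67.2, 114, 1.89 and 1.67 that an even spread gives.

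In C1q-low cells Cd4 was rare under both diets. The positive cells numbered 2 of 159 and 5 of 190 in the chow mice and 0 of 567 and 4 of 991 in the HFD mice. A count of 0 in 567 cells allows a share of up to 0.529% (3 counts of the total). Monocyte-like cells, which were Ly6c2-positive (at least 2 UMIs) and MHC II-low, held 0 of 48 and 2 of 60 positive cells in chow and 0 of 248 and 2 of 326 in HFD. Ly6c2-negative MHC II-high cells below the C1q limit held 2 of 40 and 2 of 43 in chow and 0 of 161 and 0 of 298 in HFD. RNA released into the droplets can give UMIs in cells that do not express a gene, and the C1q-low shares, 0.404% to 2.63% in the 3 mice with a positive cell, serve as that background (median depth of C1q-low cells 2691 to 3767 UMIs). The C1q-high shares of both HFD mice lay above the C1q-low share of the same mouse and outside its error, which was that floor in replicate 1 and a Wilson interval of 0.157% to 1.03% in replicate 3.

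Within the C1q-high class the share differed with the C1q level. In chow mice it went from 9.43% and 4.08% of cells with C1q between 0.5% and 1% of UMIs, through 20.2% and 14.6% between 1% and 1.5%, to 32.0% and 25.5% between 1.5% and 2%. Between 2% and 2.5% it was 30.1% and 28.3%, and at 2.5% or more 29.3% and 21.9%. In HFD mice the share was 0.855% and 1.09% in the lowest of these steps, which is near the C1q-low share, 4.62% and 0.769% between 1% and 1.5%, 8.14% and 9.26% between 1.5% and 2%, 6.85% and 8.43% between 2% and 2.5%, and 15.5% and 11.3% at 2.5% or more (9 of 58 and 6 of 53 cells). In each step from 0.5% upward the HFD mice had the lowest values. The median C1q level of C1q-high cells was 1.91% and 1.99% in chow and 1.60% and 1.34% in HFD. With C1q at 2% or more, 29.8% and 26.0% of chow cells and 10.7% and 9.56% of HFD cells were Cd4-positive. The order of the diets was the same, and the ratio of the means was 2.76 in place of 4.63.

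**Figure D2:**
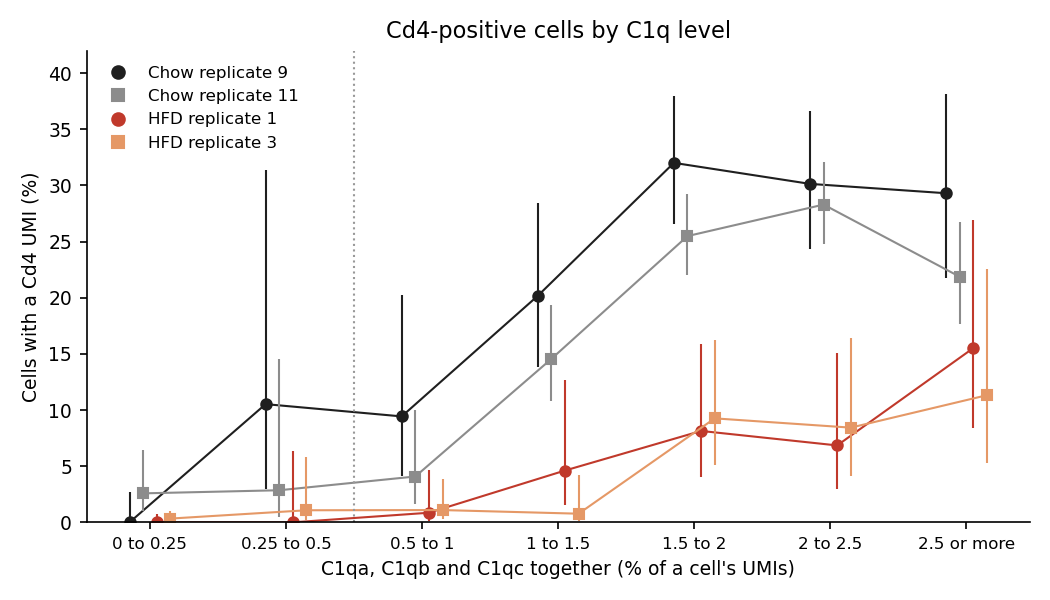
Share of cells with a Cd4 UMI (vertical axis, percent) by the C1q level of the cell (horizontal axis, percent of UMIs, in 7 steps), with 1 line per mouse and Wilson 95% intervals. The dotted line marks the limit of C1q-high cells at 0.5%. The chow mice rise to 32.0% and 28.3% and stay above both HFD mice in each step to the right of the line.

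The monocyte genes Ly6c2, Ccr2 and Plac8 gave a second division of the class. In chow mice 31.0% of 436 and 27.6% of 927 C1q-high cells with no UMI of these genes were Cd4-positive, against 23.0% and 18.2% of the cells with one. In HFD mice only 38 and 24 C1q-high cells had no such UMI, of which 3 and 0 were positive. Among HFD cells with such a UMI 6.09% and 4.88% were positive. C1q-high cells with a UMI of Lyve1 or Cd163, which mark a perivascular and submucosal kind of gut macrophage, were positive in 24.4% of 41 and 18.3% of 175 cells in chow and in 0 of 7 and 0 of 4 in HFD, too few for a share. C1q-high cells low in MHC class II (under 3% of UMIs for H2-Ab1, H2-Aa, H2-Eb1 and Cd74) were also few and 9 of 36 and 15 of 119 were positive in chow, against 0 of 14 and 1 of 17 in HFD.

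Because T cells carry Cd4 as well, their defining transcripts were counted in the same cells. Of 9 listed genes 8 were in the file, namely the CD3 chains Cd3d, Cd3e and Cd3g, the T cell receptor constant genes Trac, Trbc1 and Trbc2, the kinase gene Lck and the adhesion molecule gene Cd2. Among the 674 Cd4-positive C1q-high cells 15 (2.23%) held a UMI of any of these, 2 (0.297%) held 2 or more of the genes, and 4 (0.593%) held a CD3 chain. Among 2839 Cd4-negative C1q-high cells 112 (3.95%) held any, 5 (0.176%) 2 or more and 15 (0.528%) a CD3 chain. By mouse, any T cell gene was found in 1.94%, 2.40%, 0% and 3.85% of positive cells (chow 9, chow 11, HFD 1, HFD 3) and in 2.78%, 3.73%, 3.74% and 5.84% of negative cells. In each mouse this share was the lower in Cd4-positive cells, while positive cells were the deeper ones in 3 of the 4 mice. In the HFD mice it rested on 0 of 25 and 1 of 26 positive cells, with Wilson intervals up to 13.3% and 18.9%. These lie above the shares in negative cells, so the order in the HFD mice is not resolved. CD3 chains, by contrast, were found in 0%, 0.719%, 0% and 3.85% of positive and 0.557%, 0.358%, 0.267% and 1.13% of negative cells, and so were the more frequent in positive cells of chow replicate 11 (3 cells) and HFD replicate 3 (1 cell). No T cell gene had a UMI in the 11 Cd4-positive C1q-low cells.

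The summed level of the 8 genes was 4.58, 10.3, 0 and 7.54 CPM in Cd4-positive and 7.44, 14.3, 9.74 and 31.3 CPM in Cd4-negative C1q-high cells of the 4 mice in the same order. A list of other T cell genes (13 of 20 in the file) summed to 105, 80.5, 73.4 and 37.7 CPM in positive and 86.2, 96.9, 61.0 and 75.5 CPM in negative cells, and so was the higher in positive cells of chow replicate 9 and HFD replicate 1. All 3 CD3 chains were at 0 in the positive cells of chow replicate 9 and HFD replicate 1. Without all cells that held a T cell UMI the Cd4-positive shares were 27.8% and 23.3% in chow and 6.49% and 4.76% in HFD. The sort had removed lineage-positive cells. The antibodies listed for the study include anti-CD3 and no anti-CD4, but the list does not say which made up the lineage gate. The deposited cells are those that an automated annotation called macrophage or monocyte. Innate lymphoid genes (5 of 7 listed in the file) summed to at most 9.17 CPM in Cd4-positive cells, and epithelial genes to 9.17 to 30.0 CPM. Dendritic cell genes (10 of 11 in the file) summed to 68.7, 90.4, 101 and 75.4 CPM in positive and 92.7, 93.9, 177 and 176 CPM in negative cells.

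**Figure D3:**
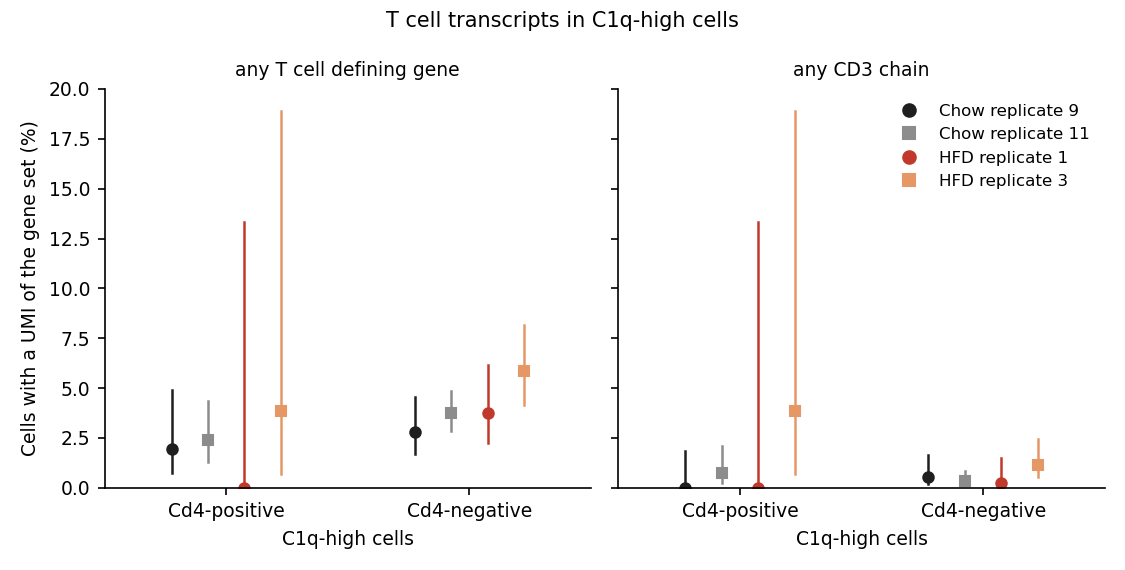
Share of C1q-high cells (vertical axis, percent) with a UMI of any of 8 T cell defining genes (left) or of any CD3 chain (right), for Cd4-positive and Cd4-negative cells. Points are single mice and bars are Wilson 95% intervals, which are wide for the 25 and 26 Cd4-positive cells of the HFD mice. For any T cell gene the share in Cd4-positive cells is the lower in each mouse.

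Genes that accompany Cd4 were chosen in the C1q-high cells of the chow mice, as the 50 with the highest and the 50 with the lowest ratio of Cd4-positive to Cd4-negative cells in both mice among 5053 eligible genes (detected in 5% or more of these cells). Their chow ratios chose them and are a description. The cells compared differed in depth, with a median of 5040.5 and 4521 UMIs in positive and 4001 and 3681 UMIs in negative cells. The 50th higher gene, Polr3d, had a lower log2 ratio of 0.49 over both mice, as did Calhm2, the first outside. On the other side the last inside, Eps8, stood at -0.60 and the first outside, Tmed7, at -0.59, so neither limit marks a step.

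The higher companions had median log2 ratios of 0.68 and 0.60 in chow replicates 9 and 11, and most of them were sparse. Npl, which breaks down sialic acid, had 267 CPM in positive and 136 CPM in negative cells of chow replicate 9, and 188 CPM and 107 CPM in replicate 11. It was found in 27.9% of cells, whereas the other 11 leading genes were found in 5.28% to 8.92%. Slc40a1, the iron exporter ferroportin, had 72.4 CPM against 42.9 CPM and 52.5 CPM against 20.97 CPM. Hk3, a hexokinase, had 30.2 CPM against 13.1 CPM and 32.4 CPM against 19.9 CPM. Lhfpl2, which heads the list and encodes a membrane protein of the tetraspan type, had log2 ratios of 0.81 and 1.13. The other leading genes were Tfpi, an inhibitor of tissue factor, Kcnj10, a potassium channel, Ggps1, an enzyme of isoprenoid synthesis, the signalling regulator Rgs3, the transcription factor genes Zbtb4 and Meis3, Cmtm8 and Dppa3. Their log2 ratios ran from 0.61 to 1.75. Dnase1l3, a secreted DNase, was the only member of the resident macrophage list among the 50, and Lag3 the only member of the list of CD4 ligands, partners and regulators. No T cell, B cell or dendritic cell gene was among them.

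The lower companions had median log2 ratios of -0.99 and -0.85 and included 2 genes of the monocyte list and 2 of the B and plasma cell list. Ccr2, the chemokine receptor of monocytes, had 77.0 CPM in positive and 293 CPM in negative cells of chow replicate 9, and 129 CPM and 335 CPM in replicate 11. S100a4, a calcium-binding protein gene of the monocyte list, had 13.7 CPM against 76.6 CPM and 13.3 CPM against 67.6 CPM. Retnla, which encodes the secreted protein RELM-alpha, headed this side with log2 ratios of -3.81 and -2.96. Of the 11 monocyte genes in the file 4 were lower and 2 higher in the Cd4-positive cells of both chow mice, and 5 differed in sign between the mice, such as Plac8 with 39.4 CPM against 52.1 CPM and 98.7 CPM against 86.3 CPM. Also among the 8 leading genes were S100a6, the lectin receptor gene Clec12a and Alox5ap, which serves leukotriene synthesis. Igha and Jchain, which encode parts of the IgA that plasma cells secrete, had 102 CPM and 125 CPM in positive cells of chow replicate 9 against 1426 CPM and 1066 CPM in negative cells, and 221 CPM and 214 CPM against 801 CPM and 678 CPM in replicate 11. With cells reduced to 2000 UMIs their log2 ratios were 0.19 and -0.12 in replicate 9 and -1.31 and -1.14 in replicate 11. The low level of Igha in positive cells of replicate 9 was thus not found in thinned cells. Thinning also left out shallow cells and changed which cells were positive (206 before and 115 after in replicate 9), and the part of depth was not tested. B and plasma cell genes were also high in C1q-low chow cells, where 5 listed genes summed to 25808.5 CPM and 39929 CPM, and their part in these ratios was not tested.

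Which genes entered the higher list depended on the cells used. Of the 50, 9 were again chosen from chow replicate 9 alone, 15 from replicate 11 alone, 24 when Cd4-positive meant 2 or more UMIs and 3 when cells were first reduced to 2000 UMIs, while 47 and 43 were shared with the lists at C1q limits of 0.25% and 1%. After thinning 42 of the 50 kept a positive ratio in both chow mice, but the thinned UMIs are part of those that chose the list. The prior of 1 UMI also raises the ratio of a sparse gene where the positive sum is the smaller. In replicate 9 the thinned sums held 230000 UMIs in positive and 1128000 UMIs in negative cells. Nothing is read from this count.

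Over single chow C1q-high cells the 5 genes most correlated with Cd4, by the lower of the Pearson correlations of both mice over 5056 genes, were Apoe (0.233 and 0.187), Clec4n (0.178 and 0.177), Dnase1l3 (0.175 and 0.163), Cd63 (0.156 and 0.132) and Hebp1 (0.147 and 0.123). They encode a lipid carrier, the fungal receptor Dectin-2, a DNase, a tetraspanin of lysosomes and a haem-binding protein. The 2557 cells share the depth of their library, and in counts this sparse the correlations are weak.

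**Figure D4:**
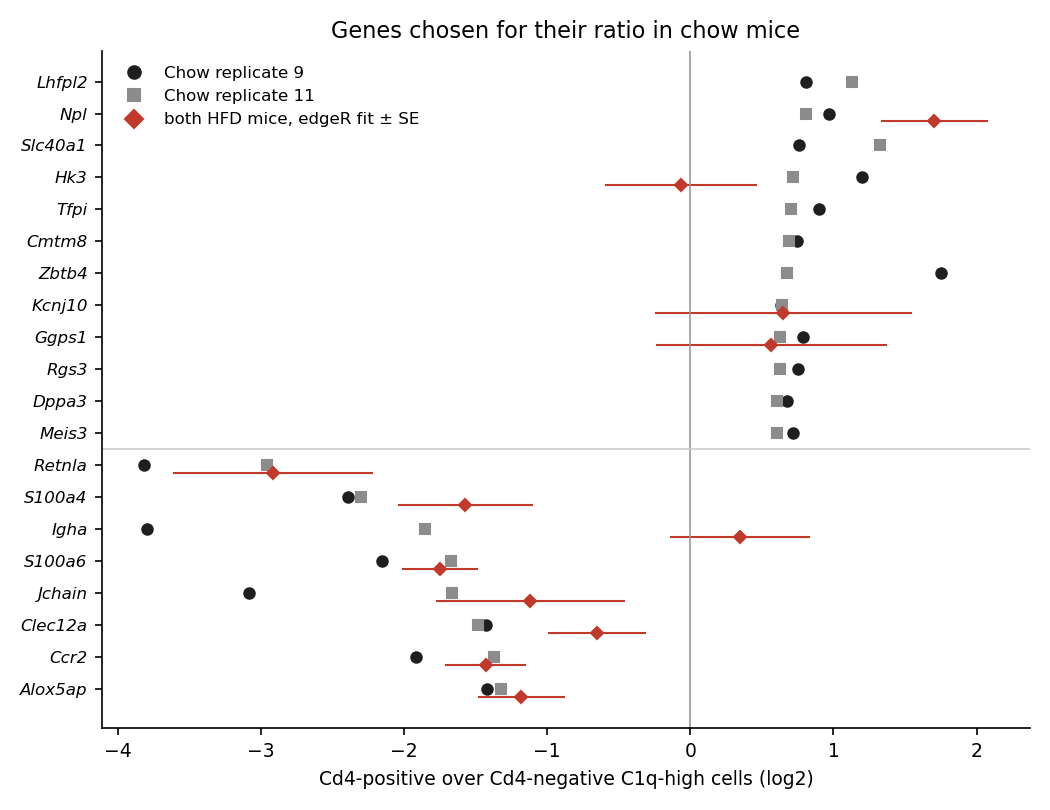
Log2 ratio of Cd4-positive over Cd4-negative C1q-high cells (horizontal axis) for the 12 most higher and 8 most lower genes, which were chosen on the 2 chow mice (circles and squares), and the fitted log2 fold change with its SE in both HFD mice (diamonds), drawn where the gene passed the filter on low counts. Npl is again higher in HFD mice, Hk3 lies near 0, and of the 8 lower genes all but Igha lie below 0.

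The HFD mice, which played no part in the choice, allowed a test of the same contrast with the mouse as a block. It rested on the 25 and 26 Cd4-positive cells of the HFD mice, whose sums held 109063 and 132661 UMIs. At an FDR of 1% in the quasi-likelihood test of edgeR, 39 of 5107 genes (0.764%) were higher and 28 (0.548%) lower in Cd4-positive cells. The spread was shared fully between genes in this fit. With adjusted degrees of freedom the same test called 0 genes, with 486 at an unadjusted p under 0.05, and DESeq2 called 26. Cd4-positive HFD cells also had more C1q, with a median of 2.17% and 1.99% of UMIs against 1.58% and 1.31% in negative cells, while the medians in chow were 1.96% and 2.05% against 1.90% and 1.97%. Among cells with C1q of 1% or more 1 gene was called and at 2% or more 0 were, with 175 at an unadjusted p under 0.05. At the limit of 1% nearly all Cd4-positive HFD cells were kept (24 in each mouse), and the spread was no longer shared fully between genes. The parts of C1q and of this change in the loss of calls were not tested.

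Of the 50 higher companions 26 passed the filter on low counts, which a sparse gene may pass through its Cd4-positive sums alone, so nothing is read from the median log2 fold change of these 26 (0.54). Npl was higher (log2 fold change 1.70, SE 0.37, adjusted p = 0.000551 by edgeR), a call that was lost in 6 of 11 other settings, with 248 CPM in positive and 60.4 CPM in negative cells of HFD replicate 1 and 113 CPM and 57.1 CPM in replicate 3. The other 3 of the 12 leading genes that were tested had log2 fold changes of -0.07 (Hk3), 0.65 (Kcnj10) and 0.57 (Ggps1), and none passed. The sign of the median turned to -0.020 and -0.043 when companions were chosen from chow replicate 9 or 11 alone, and to -0.33 with 2 or more Cd4 UMIs.

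Of the 50 lower companions 49 were tested and 6 were lower, with a median of -0.96 and 41 below 0. Most cells in the filter were Cd4-negative, and a gene that is low in positive cells may pass through the negative cells alone. Nothing is read from these counts or the median. The 6 were Retnla (-2.92, SE 0.70), the chemokine gene Ccl9 (-2.56, SE 0.39), S100a6 (-1.75, SE 0.27), Tmsb10 (-1.47), Ccr2 (-1.43, SE 0.28) and Alox5ap (-1.18, SE 0.31). Ccr2 stood at 73.4 CPM and 241 CPM in positive and 500 CPM and 450 CPM in negative cells. Igha, with 55.0 CPM and 82.9 CPM against 70.8 CPM and 53.2 CPM, did not pass (0.35, adjusted p = 0.951 by edgeR). With C1q at 1% or more none of the 49 was called and the median was -0.86.

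Of 20 listed genes of resident macrophages 19 were tested between the Cd4-positive and Cd4-negative cells of HFD mice, 7 rose at an FDR of 1% and 12 did not pass. All 19 had a positive log2 fold change in the fit over both mice, with a median of 1.01, and with adjusted degrees of freedom none was called. Of all 5107 genes tested 39 (0.764%) rose, 2420 had a positive log2 fold change and the median was -0.04. The 7 were Apoe (1.34, SE 0.10, adjusted p = 9.93e-39 by edgeR), the fractalkine receptor gene Cx3cr1 (1.46, SE 0.26), Adgre1 (1.08, SE 0.24), the tetraspanin genes Cd63 (1.05, SE 0.19) and Cd81 (1.13, SE 0.17), the chemokine gene Pf4 (1.32, SE 0.21) and Ms4a7 (1.42, SE 0.17). Apoe stood at 52172 CPM and 36401 CPM in positive and 22121 CPM and 16454 CPM in negative cells of the HFD mice. In chow mice it stood at 72039 CPM and 67093 CPM in positive and 56469 CPM and 55666 CPM in negative cells. Cx3cr1 stood at 559 CPM and 302 CPM against 188 CPM and 150 CPM in HFD mice and at 542 CPM and 593 CPM against 464 CPM and 501 CPM in chow mice. Thus, the positive cells were the higher in all 4 mice for both genes, and the groups of HFD values did not overlap. Single mice differed for some genes that did not pass, such as Il10 with 110 CPM against 81.8 CPM in HFD replicate 1 and 30.2 CPM against 61.8 CPM in replicate 3. Dnase1l3 did not pass (0.52, adjusted p = 0.0156 by edgeR). With C1q at 1% or more 1 of the 19 genes was called and the median was 0.73. At 2% or more none was, 12 were positive and the median was 0.26.

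For monocyte genes the fitted log2 fold changes had the other sign, and most did not pass. Of 12 listed genes 9 were tested, all had a negative log2 fold change, and Ccr2 and Plac8 (-1.07, SE 0.19, adjusted p = 2.28e-06 by edgeR) fell. Of all 5107 genes tested 28 (0.548%) fell and 2687 had a negative log2 fold change. Plac8 stood at 532 CPM and 920 CPM in positive and 1530 CPM and 1790 CPM in negative HFD cells. Cd4-positive HFD cells thus held more Plac8 than Cd4-positive chow cells, with 39.4 CPM and 98.7 CPM. The median of the 9 genes was -1.07, and at C1q of 2% or more it was -0.28 over 8 genes with none called. A gene that is low in positive cells may pass the filter through the negative cells alone, so nothing is read from the monocyte counts or median.

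**Figure D5:**
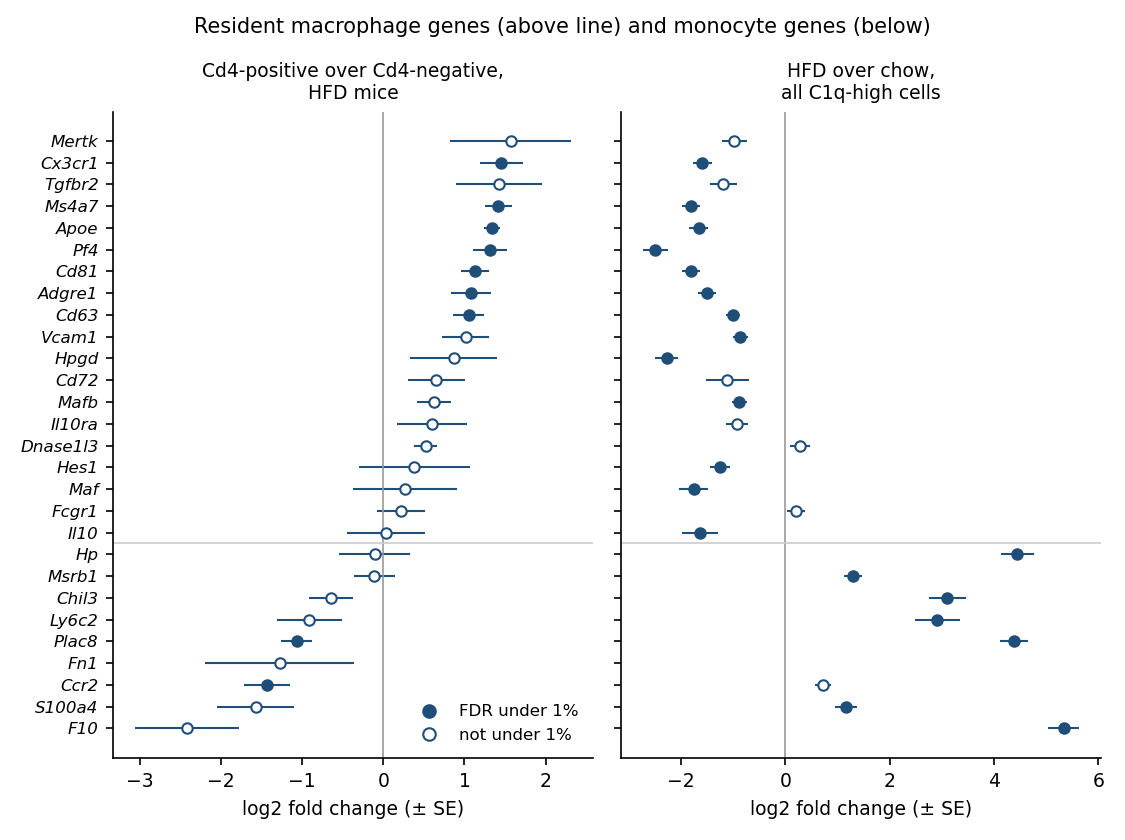
Log2 fold change (horizontal axes, bars are SE) of the resident macrophage genes (above the grey line) and monocyte genes (below it), for Cd4-positive over Cd4-negative C1q-high cells in both HFD mice (left) and for HFD over chow in all C1q-high cells (right, where Fn1 was not tested). Filled points passed an FDR of 1%; on the left all 19 resident genes lie above 0 and all 9 monocyte genes below it, and on the right 17 of 19 resident genes lie below 0 and all 8 monocyte genes above it.

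The largest changes in this contrast lay partly outside the lists. Olfml3, a secreted matrix protein gene, rose by 2.00 (SE 0.31, adjusted p = 2.66e-08 by edgeR), from 92.2 CPM and 73.0 CPM in negative to 348 CPM and 249 CPM in positive cells. H2-M2, a non-classical MHC class I gene, rose by 1.97 (SE 0.23), Ptgs1, which encodes cyclooxygenase 1, by 1.78 (SE 0.27), and Fcrls, an Fc receptor-like gene of macrophages, by 1.76 (SE 0.40). The difference was larger in replicate 1 than in replicate 3 for H2-M2 (1476 CPM against 257 CPM, and 332 CPM against 175 CPM) and for Fcrls (248 CPM against 58.5 CPM, and 82.9 CPM against 42.5 CPM). On the other side the eosinophil chemokine gene Ccl24 fell by 4.99 (SE 0.63, adjusted p = 2.34e-12 by edgeR). It stood at 9.17 CPM and 7.54 CPM in positive and 79.2 CPM and 480 CPM in negative cells, and was also lower in the positive cells of chow mice (5.50 CPM and 11.8 CPM against 32.4 CPM and 30.8 CPM). Retnla, Ccl9, Saa3, an acute phase gene (-2.79, SE 0.73), and Spp1, which encodes osteopontin (-2.78, SE 0.70), were the other 4. In positive HFD cells Saa3 stood at 27.5 CPM and 0 CPM and Spp1 at 0 CPM and 22.6 CPM. The positive sums held 109063 and 132661 UMIs, so such levels rest on few UMIs. Genes this low in positive cells may pass the filter through the negative cells alone, which may favour a fall. Saa3 rested on 1 HFD mouse for most of its signal, with 197 CPM in negative cells of replicate 1 and 14.6 CPM in replicate 3.

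The ligand of CD4 was present throughout. MHC class II genes were at like levels in Cd4-positive and Cd4-negative chow cells, with 26280 CPM and 26558 CPM against 27737 CPM and 26695 CPM for H2-Ab1. In HFD mice, where 0.764% of all genes tested rose, 1 of 7 tested MHC class II genes did. It was the invariant chain gene Cd74 (0.50, SE 0.10, adjusted p = 7.26e-05 by edgeR), with 32037 CPM and 28064 CPM against 24970 CPM and 22291 CPM. The call was lost in 8 of 11 other settings of the analysis, DESeq2 among them (adjusted p = 0.126). Of the intracellular partners, Lck, the kinase that CD4 holds in T cells, had at most 1.47 CPM in the positive cells of any mouse. Lyn and Fgr, related kinases of myeloid cells, had 251 CPM and 44.9 CPM in the positive cells of chow replicate 9 and 248 CPM and 36.8 CPM in those of replicate 11. Of 25 listed ligands, partners and regulators of CD4, among them the transcription factor genes Runx1, Runx3 and Zbtb7b that act on the Cd4 gene in T cells, 22 were in the file, 17 were tested and none was called in the HFD mice (median 0.07). For this list the smallest adjusted p was that of Lag3 (2.01, SE 0.57, adjusted p = 0.0248 by edgeR).

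Lag3 encodes a receptor of MHC class II that is related to CD4, and it is the neighbour of Cd4 on chromosome 6, from 124904361 to 124911705 on the same strand. It had 65.1 CPM and 76.1 CPM in positive and 44.2 CPM and 44.0 CPM in negative chow cells, and 55.0 CPM and 113 CPM against 16.9 CPM and 28.8 CPM in HFD cells. The positive cells were the higher in each of the 4 mice. Over all C1q-high cells it stood at 50.9 CPM and 52.8 CPM in chow and 19.4 CPM and 33.3 CPM in HFD. The neighbour on the other side, Gpr162, was low, with 7.40 CPM and 12.1 CPM in chow and 4.25 CPM and 4.06 CPM in HFD. The levels of the diets did not overlap, HFD being the lower, as for 23.3% of all 5091 genes tested. Of 13 protein-coding genes within 100 kb 11 were in the file, and Tpi1, a glycolytic enzyme gene, went against Cd4 with 87.9 CPM and 96.7 CPM in chow and 169 CPM and 173 CPM in HFD. Usp5 and Cops7a were also higher in both HFD mice than in both chow mice, as were 40.2% of all genes tested. The diets overlapped for Cdca3, Gnb3, P3h3, Spsb2, Ptms and Mlf2, the last with 118 CPM and 104 CPM against 115 CPM and 133 CPM.

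Timd4, which encodes Tim-4, is used with CD4 to mark gut macrophages and is named for that reason after its values were seen. It was sparse, with a UMI in 4.42% of chow C1q-high cells, and it did not pass the filter for a test between Cd4-positive and Cd4-negative cells. Its level was 26.6 CPM and 25.5 CPM in positive and 9.62 CPM and 13.9 CPM in negative chow cells, and 18.3 CPM and 7.54 CPM against 3.90 CPM and 5.15 CPM in HFD cells. Timd4 is 1 of 16 listed genes of long-lived macrophages, of which 14 were in the file. In the Cd4-positive cells of both chow mice 9 of these were lower and 4, Timd4 among them, higher, and several were at a few CPM. Lyve1, also named after its values were seen, was among the 9, with 8.25 CPM and 9.33 CPM in positive and 35.0 CPM and 49.6 CPM in negative chow cells, as was Cd163, with 9.16 CPM and 19.6 CPM against 17.5 CPM and 28.8 CPM. In HFD mice Mrc1, Stab1 and Cd36 were tested between Cd4-positive and Cd4-negative cells and none was called (median -0.23, lowest adjusted p = 0.752 by edgeR). Between the diets 4 were tested in C1q-high cells and fell, Mrc1 (-1.97), Igf1 (-3.46), Stab1 (-1.26) and Cd36 (-1.33). Of all 5091 genes tested 236 (4.64%) fell. Igf1 was detected in 17.3% of chow C1q-high cells but stood at 10.9 CPM and 4.87 CPM in HFD. It may thus have passed the filter through the chow cells, where it is high. Nothing is read from this count or from the median (-1.65, and -1.51 without HFD replicate 3).

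The diet contrast within all C1q-high cells was then fitted for the companions, a contrast that did not choose them but uses the same chow libraries. Of 5091 genes 254 (4.99%) were higher and 236 (4.64%) lower in HFD mice by the same test and FDR. Of the 37 higher companions tested 6 fell and 1 rose, and the median log2 fold change was -0.74 against -0.02 over all genes. The companions had to be detected in 5% or more of chow cells and most lay near that limit, a condition on chow alone that the other genes did not have to meet, so a fall is favoured by the choice and nothing is read from this count or median. Npl fell by 1.35 (SE 0.21, adjusted p = 0.00225 by edgeR), from 178 CPM and 130 CPM in chow to 72.8 CPM and 60.1 CPM in HFD. Slc40a1 fell by 2.69 (SE 0.55), from 52.4 CPM and 29.6 CPM to 12.7 CPM and 2.44 CPM, and Rgs3 fell by 2.28 (SE 0.40). The other 3 were Fblim1 (-2.23), Loxl3 (-1.64) and Engase (-1.83). Hk3 was the one that rose (1.39, SE 0.20), from 18.7 CPM and 23.3 CPM to 57.6 CPM and 65.0 CPM. With C1q at 2% or more none of them fell at this FDR and the median was -0.26, and without HFD replicate 3 none was called.

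Of the 50 lower companions 10 rose and 2 fell, with a median of 0.14. S100a4 (1.16), S100a6 (1.49), Clec12a (1.32) and Alox5ap (0.84) were among the 10, and Igha (-3.86) and Jchain (-3.63) were the 2. The remaining 38 passed in neither direction. Of the 19 resident genes tested 13 fell (median -1.26) and of 8 monocyte genes 7 rose (median 3.01). The latter include F10 and Hp, which were detected in 0.743% and 1.29% of chow C1q-high cells and so passed the filter through the HFD cells, where they are high, and nothing is read from the monocyte count or median. With C1q at 2% or more 6 resident genes fell (median -0.68) and 3 of 6 monocyte genes rose (median 1.80), and without HFD replicate 3 the resident genes that fell numbered 7. The 4 B and plasma cell genes tested all fell, with a median of -2.34.

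Cd4-positive cells of both diets were also compared with each other. On simulated data with the same spread for all genes this test recovered 49.8% of genes changed by 2 on the log2 scale. Of 5430 genes 13 (0.239%) were higher and 8 (0.147%) lower in HFD mice, and with adjusted degrees of freedom 2 were called. Among those that rose were Cxcl9, an interferon-induced chemokine gene (4.002, SE 0.46, adjusted p = 7.41e-05 by edgeR), with 12.8 CPM and 21.6 CPM in chow and 119 CPM and 490 CPM in HFD, Ly6a (3.77), the chemokine gene Ccl5 (3.55) and Plac8 (3.25, SE 0.35). Cxcl9 and Ccl5 were detected in only 3.05% and 3.44% of chow C1q-high cells. They may have passed the filter through the HFD cells, where they are high, so the filter may favour their rise. Ccl8 rose by 3.62, but stood at 151 CPM and 122 CPM in chow, 174 CPM in HFD replicate 1 and 3445 CPM in replicate 3. Of 17 interferon-induced genes 4 rose, namely Ly6a, Irf7, Gbp2 and Cxcl9. The filter may favour such rises, as for Cxcl9, so nothing is read from this count or from the median (1.26, and 1.10 without HFD replicate 3). Among those that fell were the stress cytokine gene Gdf15 (-3.01), the macrophage elastase gene Mmp12 (-2.56), Ccl9 (-2.51), Jchain (-2.87) and the mannose receptor gene Mrc1 (-2.39, SE 0.35, adjusted p = 0.0013 by edgeR), with 324 CPM and 371 CPM in chow and 91.7 CPM and 52.8 CPM in HFD. Of the 19 resident genes 1, Pf4, fell (-1.56, SE 0.23), and the median was -0.60.

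Whether the diet effect differed between Cd4-positive and Cd4-negative C1q-high cells was tested as an interaction with the mouse as a block. The diet effect is the log2 ratio of HFD over chow, so a higher one can be a smaller fall. Apoe, for one, went from 72039 CPM and 67093 CPM in chow to 52172 CPM and 36401 CPM in HFD in positive cells. In negative cells it went from 56469 CPM and 55666 CPM to 22121 CPM and 16454 CPM. Of 5091 genes 19 (0.373%) had a higher and 3 (0.0589%) a lower diet effect in the positive cells. The 19 included 5 resident genes, Apoe (0.95, SE 0.08), Cx3cr1 (1.15, SE 0.22), Cd81 (0.86, SE 0.12), Ms4a7 (1.12, SE 0.13) and Pf4 (1.07, SE 0.18), and Cd74. The calls of Cd74 and Cx3cr1 were each lost in 12 of 15 other settings. Of the 5, only Pf4 passed as lower in HFD mice when Cd4-positive cells of both diets were compared. The Cx3cr1 levels of the diets overlapped in these cells, with 542 CPM and 593 CPM in chow and 559 CPM and 302 CPM in HFD. With C1q at 2% or more 0 genes were called with edgeR, with 316 at an unadjusted p under 0.05, and the resident median went from 0.65 to 0.06. With adjusted degrees of freedom 4 were called. The number of resident genes called was 1 without chow replicate 9, chow replicate 11 or HFD replicate 1, and 2 without HFD replicate 3 or with DESeq2.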

How the data were processed

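Colonic macrophages and monocytes of 2 chow and 2 HFD mice were measured by droplet single-cell RNA-sequencing with 3' UMI counting. The authors aligned reads with kallisto 0.46.0 and bustools 0.39.2 against Ensembl 97, removed cells by library size, features and mitochondrial share, removed low-abundance genes, and kept cells that SingleR annotated as macrophage or monocyte. The deposited values are raw UMI counts per gene and cell, for 11820 genes, of which 11819 matched GENCODE M21 (GRCm38), and a cell's name gives its mouse. Libraries held 3824228 to 7947893 UMIs. No doublets were removed; Scrublet marked 7 to 11 cells per library.

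C1q-high cells were those with C1qa, C1qb and C1qc at 0.5% or more of UMIs, and Cd4-positive cells those with at least 1 Cd4 UMI. Counts were summed per mouse and class and tested with edgeR 4.0.16 (quasi-likelihood test, TMM, FDR of 1% by Benjamini-Hochberg) under R 4.3.3, over genes with CPM above 1 in at least 2 sums and detected in 5% or more of cells. Ratios in single mice used a prior of 1 UMI, which raises the ratio of a sparse gene where the positive sum is the smaller. Contrasts within mice had the mouse as a block. With 2 mice per diet the p-values measure the spread between these mice only, and the labels name 1 well per mouse. Wilson intervals (95%) and floors (3 counts) cover counting error only.

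Named genes were the 12 most higher and 8 most lower companions, called or most abundant list members, the 5 largest rises and falls of each test with all mice in the same direction, and the 5 genes most correlated with Cd4. The gene, lists and tests were chosen with earlier results of these data known. On simulated data with 200 genes changed by 2 (log2), the tests recovered 52.4% (Cd4-positive against negative in HFD), 99.7% (diet, C1q-high), 49.8% (diet, Cd4-positive) and 57.3% (interaction). Alternatives were DESeq2 1.42.0, a likelihood-ratio test, other size factors, no filter, thinned cells, other C1q and Cd4 limits, cells without T cell UMIs, and each mouse left out.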

Additional observations from a re-analysis of the deposited data

Results flagged for a closer look

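The diet effect is again the log2 ratio of HFD over chow, so a higher one can be a smaller fall, as for Cxcl1. For 8 genes it differed between Cd4-positive and Cd4-negative C1q-high cells, by the interaction test of edgeR with Benjamini-Hochberg adjustment over 5091 genes. They were the largest differences with both HFD mice in the same direction, and none was called with C1q at 2% or more of UMIs. The calls were lost in 6 to 8 of 15 settings, and that of Il1rn in 11. No gene with a lower diet effect in positive cells was called with DESeq2, with adjusted degrees of freedom or without any 1 of the 4 mice. The difference in log2 diet effect was 1.57 for Olfml3 (adjusted p = 0.00155), 1.39 for the chemokine gene Ccl7 (adjusted p = 0.000877), 1.31 for Rasgef1b (adjusted p = 0.00179), 1.27 for Tmem37 (adjusted p = 0.003) and 1.24 for the neutrophil chemokine gene Cxcl1 (adjusted p = 0.000121). Cxcl1 stood at 1867 CPM and 1677 CPM in Cd4-positive and 1675 CPM and 1478 CPM in Cd4-negative chow cells, and at 963 CPM and 965 CPM against 416 CPM and 349 CPM in HFD cells. Ccl7 was the lower in the positive cells of both chow mice (493 CPM and 485 CPM against 545 CPM and 781 CPM) and the higher in those of both HFD mice (642 CPM and 859 CPM against 321 CPM and 489 CPM). With cells reduced to 2000 UMIs these directions did not hold throughout, as the log2 ratio of Ccl7 was -0.39 and 0.029 in the chow mice and -1.49 and 1.26 in HFD replicates 1 and 3. The difference was -1.73 for Mmp12 (adjusted p = 0.00489), -1.65 for the interleukin-1 antagonist gene Il1rn (adjusted p = 0.00614) and -0.85 for the peroxiredoxin gene Prdx5 (adjusted p = 0.003). Il1rn stood at 96.2 CPM and 114 CPM in positive and 108 CPM and 131 CPM in negative chow cells, and at 73.4 CPM and 158 CPM against 496 CPM and 412 CPM in HFD cells. The part of the C1q level in these differences was not tested beyond that limit.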

How the results depend on the processing

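The difference in Cd4-positive share of C1q-high cells (-19.9 points) was -8.26 with 2 or more UMIs, -11.9 for the share computed at 2000 UMIs and -25.3 in cells with no Ly6c2, Ccr2 or Plac8 UMI, and ran from -22.2 to -17.5 with 1 mouse left out. The log2 level difference then ran from -2.61 to -2.18. Genes called between Cd4-positive and negative HFD cells (67) were 26 with DESeq2, 1 with C1q at 1%, 36 with 2 or more Cd4 UMIs, 12 after thinning, 0 with adjusted degrees of freedom and 0 with C1q at 2%. For diet in C1q-high cells (490) they were 828 by the likelihood-ratio test, 280 after thinning and 78 with C1q at 2%, and 135 to 719 with 1 mouse left out. For diet in Cd4-positive cells (21) they were 39, 75 without a filter, 13 after thinning, 2 with adjusted degrees of freedom, and 11 to 57. For the interaction (22) they were 8 with DESeq2, 47 by the likelihood-ratio test, 54 without a filter, 44 and 6 with C1q at 0.25% and 1%, 37 with 2 or more Cd4 UMIs, 11 after thinning, 4 with adjusted degrees of freedom, 0 with C1q at 2%, and 1 to 6. The median of the higher companions in HFD mice (0.54) was -0.020 and -0.043 when chosen in chow replicate 9 or 11, and -0.33 and 0.20 when chosen and tested with 2 or more UMIs and with C1q at 1%, and the number called (1) was 2, 2, 0 and 0, with 2 when chosen on thinned cells and 3 when chosen with C1q at 0.25%. Their diet median (-0.74) was -0.87 without a filter, -0.67 with C1q at 1%, -0.89 after thinning, -0.26 with C1q at 2% and -0.69 to -0.54 with 1 mouse left out.

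For the 27, 62, 13 and 14 called genes among those named, the companions and the lists, the call was lost in 131 of 290, 101 of 842, 39 of 191 and 110 of 210 refits of the 4 tests, and the sign turned once, for Adgre1 between Cd4-positive and negative HFD cells with C1q at 2% (-0.034). Adjusted degrees of freedom, C1q at 2% and cells without monocyte UMIs were chosen after seeing the data. Where 1 mouse of a diet was left, it was assumed to vary like the other diet, and leaving out an HFD mouse left no residual degrees of freedom for the contrast within HFD mice. No paired analysis was possible because chow and HFD mice share no replicate numbers. The causes of these changes were not tested. The 25 and 26 Cd4-positive HFD cells limit every contrast that uses them.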
